A study of Mus musculus with 46 samples.

Results

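The 10 genes Fn1, Postn, Tnc, Sparc, Thbs1, Thbs2, Tgfbi, Eln, Fbn1 and Fbln2 encode matricellular, provisional matrix and elastic fibre glycoproteins. They were taken by name from the 53465 genes of the table, and each name matched 1 gene. The mice were wild type (WT in the labels), and the study's methods describe them as male C57BL/6 mice aged 8 to 12 weeks. They underwent sham surgery, unilateral ureteric obstruction (UUO, in which 1 ureter is tied and the kidney fibroses) or UUO followed by reimplantation of the ureter (rUUO), with cells collected 14 days after reversal. The labels do not give the day of UUO, and the methods and design text name both day 2 and day 7. PDGFRB+ stromal cells, LTL+ proximal tubule (PT) cells, F4/80+ macrophages and CD31+ endothelial cells were sorted from the kidneys by flow cytometry. Stromal cells gave 4 sham, 4 UUO and 4 rUUO samples, PT cells 3, 4 and 3, macrophages 4, 4 and 3, and endothelial cells 4, 3 and 4. All levels are FPKM, which scales the fragments of a gene by its transcript length and by the total of the sample, so that levels of different genes compare per length.

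Matricellular proteins are secreted into the matrix to modulate how cells adhere and signal, without forming fibres themselves. They are scarce in most resting adult tissue and are produced by activated fibroblasts during wound repair and fibrosis. Fibronectin makes up much of the provisional matrix laid down before collagen, whereas elastin, fibrillin and the fibulins build elastic fibres and the microfibrils that store latent TGF-beta. In the kidney, pericytes and fibroblasts carrying PDGFRB are regarded as the main makers of scar matrix after ureteric obstruction.

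Of these genes, 7 had an entry in the RefSeq promoter table for GRCm38.p6, and Fn1, Thbs1 and Eln were not among them. The 250 bases before the transcription start are shown for both genes with the greatest rise in obstructed stromal cells (Postn and Fbln2) and for the gene whose change in obstruction did not pass (Tgfbi). Capitals mark the letters TATAAA, searched on both strands. The windows lie at chr3:54360857-54361106 for Postn, chr6:91212514-91212763 for Fbln2 and chr13:56609336-56609585 for Tgfbi, all on the plus strand of GRCm38. By the gene intervals in the file, the Fbln2 window lies within its gene and the Tgfbi window runs past the start of its gene. The Fbn1 and Sparc windows, not shown, also lie within their genes.
Postn: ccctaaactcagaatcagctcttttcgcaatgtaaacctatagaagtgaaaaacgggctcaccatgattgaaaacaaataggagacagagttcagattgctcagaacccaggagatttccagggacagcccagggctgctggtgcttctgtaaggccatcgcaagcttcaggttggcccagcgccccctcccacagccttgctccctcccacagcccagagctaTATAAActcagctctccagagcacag
Fbln2: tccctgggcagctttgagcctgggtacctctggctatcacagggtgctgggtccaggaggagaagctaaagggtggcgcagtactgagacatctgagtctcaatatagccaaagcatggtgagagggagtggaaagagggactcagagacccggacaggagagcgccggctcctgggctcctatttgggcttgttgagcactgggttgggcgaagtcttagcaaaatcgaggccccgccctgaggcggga
Tgfbi: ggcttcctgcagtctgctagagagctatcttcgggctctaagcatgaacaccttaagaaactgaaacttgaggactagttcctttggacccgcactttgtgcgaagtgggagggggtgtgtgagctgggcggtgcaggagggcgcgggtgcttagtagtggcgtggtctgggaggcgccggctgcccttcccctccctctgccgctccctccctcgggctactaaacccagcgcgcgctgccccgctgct
TATAAA began 26 bases before the start in Postn, the usual distance of a TATA box, and the letters were also present in the windows of Tnc and, on the opposite strand, Thbs2. These are 3 of 7 genes, against 12.4% of 32851 mouse promoters of the same length. Postn had a further window without the letters, and Tnc a further, overlapping window with them. A gene counted if any of its windows held the letters, whereas the percentage counts single promoters, so the units differ. Neither TGANTCA, the core of an AP-1 site, nor the CArG box of serum response factor was present in any window of the 7 genes. They were present in 6.75% and 1.47% of all promoters. These matches describe letters only.

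The deposited values summed to between 586929 and 884982 FPKM per sample, and the 37 mitochondrial genes took 20.2% to 75.6% of the sum. Stromal sham samples gave these genes 34.0% to 45.8%, whereas UUO samples gave them 21.5% to 26.4% and rUUO samples 20.2% to 25.9%, which by itself lifts the FPKM of all remaining genes. The table holds no counts, so the depth of each sample is unknown. Each population carried its own markers in sham, with summed values over 5 marker genes of 832 to 2144 FPKM for the stromal list in stromal cells, 1610 to 2218 for the proximal tubule list in PT cells, 2783 to 3736 for the macrophage list in macrophages and 2294 to 2860 for the endothelial list in endothelial cells. The labels do not say which samples came from the same mouse, so p-values reflect the spread between these samples.

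In sham kidneys, stromal cells had the highest mean of 8 of the 10 genes. Macrophages had the highest mean of Tgfbi and endothelial cells that of Fbln2. Across the 12 groups formed by population and surgery, stromal UUO cells ranked first for Fn1, Postn, Sparc, Thbs1, Thbs2, Eln, Fbn1 and Fbln2. Stromal rUUO cells ranked first for Tnc and macrophage rUUO cells for Tgfbi. The plot of FPKM by sample shows all 44 values of each gene.

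**Figure D1:**
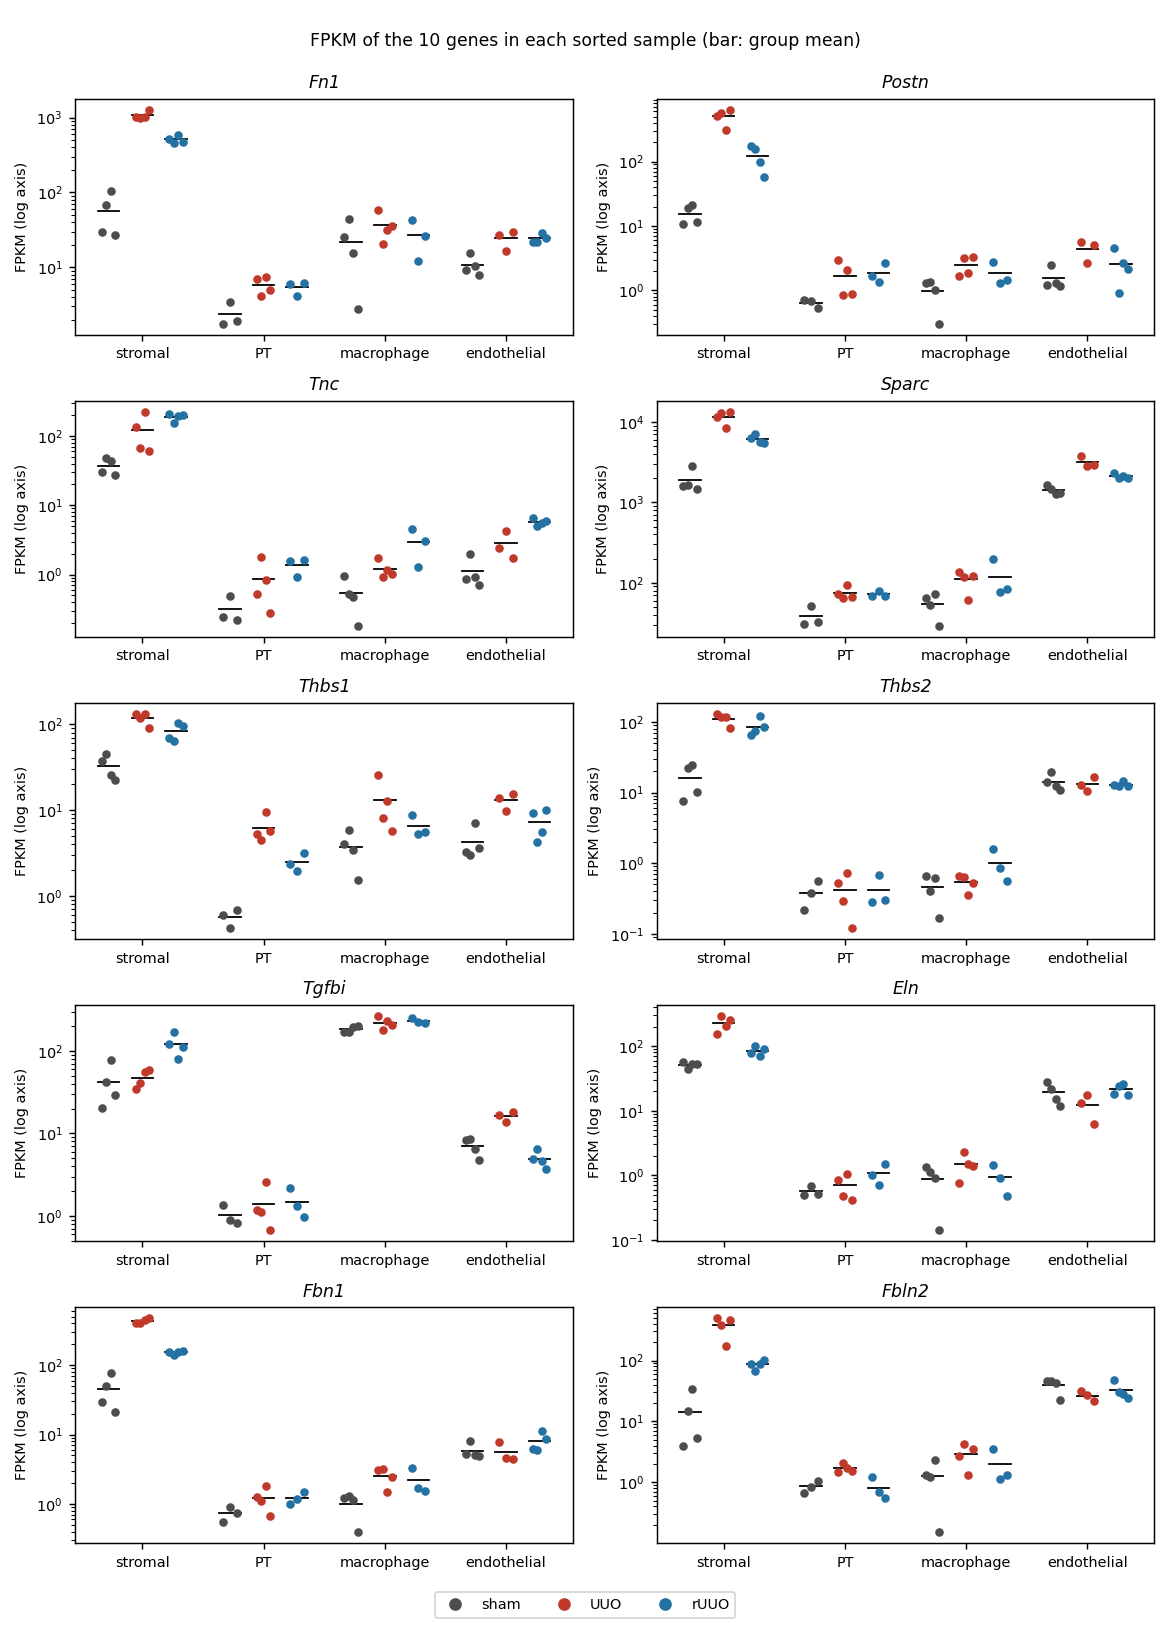
FPKM (log axis) of the 10 genes in every sorted sample, in 1 panel per gene, by population and surgery; each point is 1 sample and each bar the group mean. Stromal cells stand above the other populations for most genes, Tgfbi is highest in macrophages, at 170.1 to 265 FPKM, and endothelial Sparc, at 1286 to 3737 FPKM, reaches into the stromal range.

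Obstruction was set against sham in stromal cells to ask which matrix genes the fibrosing stroma raised. Changes were tested in limma on a log2(FPKM + 1) scale, which understates the change of low genes, and p-values were adjusted by Benjamini-Hochberg over all 14033 genes tested. At the threshold of 0.05, 9 of the 10 genes rose, whereas 13.4% of all genes tested did so. In the same 9 genes no UUO sample overlapped a sham sample, against 13.2% of all genes. The median log2 change was 2.74 over the 10 genes and −0.07 over all genes. In sorted bulk samples, a change in the mixture of cells within a gate and a change in RNA per cell cannot be told apart.

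Among the matricellular genes, Postn (chr3:54361109-54391037) encodes periostin, which aids the cross-linking of collagen and binds integrins. It had 10.6, 11.4, 19.3 and 20.9 FPKM in sham and 314, 514, 565 and 640.3 FPKM in UUO. The lowest obstructed sample thus lay far above the highest sham sample, and the ratio of means was 32.7, the largest of the 10. The log2 change was 4.95 ± 0.33 (SE, limma adjusted p = 7.02e-08).

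Sparc (chr11:55394500-55423183) encodes osteonectin, a collagen chaperone of the matrix, and was the most abundant of the 10 genes per length. Its sham values were 1447, 1603, 1654 and 2821 FPKM and its UUO values 8318, 11418, 12849 and 13403.5 FPKM. The groups were apart by a wide margin, and the log2 change was 2.64 ± 0.21 (SE, limma adjusted p = 3.54e-07).

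Thbs1 (chr2:118111876-118127133) and Thbs2 (chr17:14665500-14694262) encode thrombospondins, trimeric proteins that inhibit angiogenesis, the first of which also activates latent TGF-beta. Thbs1 had 22.3, 25.6, 37.1 and 45.4 FPKM in sham and 91.3, 119, 131 and 132 FPKM in UUO, a log2 change of 1.87 ± 0.24 (SE, limma adjusted p = 2.61e-05). Thbs2 had 7.65, 10.1, 22.6 and 24.5 FPKM in sham and 82.9, 116, 117 and 130.2 FPKM in UUO, a log2 change of 2.84 ± 0.32 (SE, limma adjusted p = 7.80e-06). Neither gene had an obstructed sample within its sham range.

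Tnc (chr4:63959785-64047015) encodes tenascin-C, an anti-adhesive protein of healing wounds. It had 27.7, 30.7, 43.5 and 47.9 FPKM in sham and 61.8, 67.5, 135 and 225 FPKM in UUO. The obstructed samples were split into a lower and a higher pair, with an SD of 76.1 around a mean of 122 FPKM, yet all were above sham. The change was 1.51 ± 0.33 on the log2 scale (SE, limma adjusted p = 0.0029), the smallest of the 9 that passed.

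For the provisional matrix, Fn1 (chr1:71585520-71653200), the gene of fibronectin, had 27.0, 29.5, 68.0 and 104 FPKM in sham and 992, 1005, 1006 and 1275 FPKM in UUO. Its mean rose 18.8-fold, and the log2 change was 4.42 ± 0.32 (SE, limma adjusted p = 1.45e-07). Tgfbi (chr13:56609523-56639562) encodes a TGF-beta-induced protein that links integrins to collagen. Its sham values of 20.2, 29.0, 41.4 and 77.6 FPKM overlapped the UUO values of 34.8, 40.5, 55.8 and 59.0 FPKM. The change of 0.31 ± 0.34 on the log2 scale did not pass (SE, limma adjusted p = 0.533).

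All 3 elastic fibre genes rose. Eln (chr5:134702593-134747323), which encodes elastin, had 44.3, 52.3, 53.9 and 57.0 FPKM in sham and 155, 209, 257 and 294 FPKM in UUO, a log2 change of 2.08 ± 0.20 (SE, limma adjusted p = 1.79e-06). Fbn1 (chr2:125300594-125507993), which encodes the microfibril protein fibrillin-1, had 20.9, 29.4, 50.3 and 77.7 FPKM in sham and 401, 405, 451 and 475 FPKM in UUO, a log2 change of 3.42 ± 0.29 (SE, limma adjusted p = 6.08e-07). Fbln2 (chr6:91212455-91272540), which encodes fibulin-2, a linker between fibronectin, fibrillin and the basement membrane, had 3.99, 5.35, 14.8 and 33.9 FPKM in sham and 170.2, 377, 471 and 498 FPKM in UUO. Its log2 change was 4.93 ± 0.49 (SE, limma adjusted p = 2.37e-06), close to that of Postn, but its sham values spanned the widest relative range.

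Sham replicate 3 had the highest sham value of 7 of the 10 genes, and its stromal markers (Pdgfrb, Pdgfra, Dcn, Col1a1 and Col1a2) summed to 2144 FPKM against 832 to 1128 in the other sham samples. Without it or any other single sample, 9 genes still passed in UUO. Beside the rise of the matrix genes, the summed stromal markers were 5709 to 9598 FPKM in UUO, and smooth muscle and myofibroblast markers were 364 to 854 FPKM against 105 to 456 in sham. Markers of the thick limb and collecting duct went the other way, from 327 to 404 FPKM in sham to 29.8 to 58.4 in UUO, and those of the proximal tubule from 29.8 to 55.7 to 7.43 to 11.8. Macrophage markers went from 56.4 to 80.0 FPKM in sham to 8.76 to 19.98 in UUO, podocyte markers from 121 to 209 to 35.7 to 106, and endothelial markers from 63.1 to 79.7 to 30.6 to 55.0. Neutrophil markers were at 0 to 0.42 FPKM in sham and 5.63 to 61.5 in UUO. The part of these shifts in the result was not tested.

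Reversal was set against obstruction to ask which genes moved back towards sham. The rUUO cells were collected 14 days after reversal and the day of UUO is not given, so time since surgery differs as well. Reversal and time cannot be told apart in any comparison of rUUO with UUO. Between rUUO and UUO in stromal cells, 5 of the 10 genes fell, against 1.22% of all genes tested, and 1 rose, against 2.95%. Their median log2 change was −0.98, while that of all genes was 0.19. The groups did not overlap in 6 genes that were lower and 1 that was higher, against 2.98% and 8.40% of all genes. The summed stromal markers ran from 5709 to 9598 FPKM in UUO (median 8389.5) and from 4643 to 5824 in rUUO (median 4792), the ranges overlapping through UUO replicate 3, which had the lowest of the 4 UUO sums. Smooth muscle and myofibroblast markers were 443 to 524 FPKM in rUUO, within their UUO range. The part of these markers in the changes was not tested.

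Postn gave 58.1, 98.8, 158 and 174 FPKM in rUUO, all under the lowest UUO sample, and fell by 2.12 on the log2 scale (SE 0.33, limma adjusted p = 0.0029). Eln gave 69.6, 77.8, 89.2 and 101 FPKM and fell by 1.40 (SE 0.20, limma adjusted p = 0.00178). Fbn1, at 141, 153, 153 and 161 FPKM, was tightly grouped between its sham and UUO ranges and fell by 1.502 (SE 0.29, limma adjusted p = 0.0104). These 3 genes passed whichever single sample was left out, although Fbn1 missed the threshold when low genes were not filtered out (adjusted p = 0.0547).

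Fbln2 had 68.4, 86.2, 86.3 and 104 FPKM in rUUO and fell by 2.03 (SE 0.49, limma adjusted p = 0.0309). Sparc had 5491, 5665, 6339 and 7059 FPKM and fell by 0.89 (SE 0.21, limma adjusted p = 0.0284). In both genes every rUUO sample lay below every UUO sample, but the calls depended on the samples and settings used. Fbln2 lost its call when any 1 of 7 of the 8 samples was left out (limma adjusted p from 0.0566 to 0.0871), all but UUO replicate 3, and Sparc lost its call for 6 of 8 (0.0578 to 0.0757), all but UUO replicate 3 and rUUO replicate 2. Both calls were also lost when low genes were not filtered out (limma adjusted p = 0.128 for Fbln2 and 0.238 for Sparc), and that of Fbln2 after quantile normalization (0.0608).

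Fn1 was lower in all 4 rUUO samples, at 457, 476, 522 and 579 FPKM, than in any UUO sample. Its log2 change of −1.07 ± 0.32 (SE) did not pass (limma adjusted p = 0.0742). Thbs1, at 64.3, 69.7, 96.4 and 103 FPKM, and Thbs2, at 65.3, 75.0, 84.5 and 119.96 FPKM, overlapped their UUO samples. Their log2 changes were −0.52 ± 0.24 and −0.39 ± 0.32 (SE, limma adjusted p = 0.239 and 0.526).

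Tgfbi rose after reversal, and Tnc had a positive change that did not pass. Tgfbi had 79.1, 110.1, 123 and 167 FPKM in rUUO, each above every UUO sample, and rose by 1.30 on the log2 scale (SE 0.34, limma adjusted p = 0.044). That call was lost when any 1 of 6 of the 8 samples was left out (limma adjusted p from 0.0546 to 0.116), the exceptions being UUO replicate 3 and rUUO replicate 4, also after each of the 3 rescalings of FPKM (0.0561 to 0.0718) and when low genes were not filtered out (0.149). Tnc had 153, 196, 199 and 207 FPKM in rUUO, within the upper part of the wide UUO range, with a log2 change of 0.82 ± 0.33 (SE, limma adjusted p = 0.181). Without UUO replicate 3, the sample with 225 FPKM, Tnc passed at 1.18 (limma adjusted p = 0.0214).

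Set against sham, all 10 genes were higher in rUUO stromal cells and none of the groups overlapped, against 11.6% of all genes called higher and 16.1% higher without overlap. The median log2 change was 2.12, beside 0.15 for all genes. Stromal markers stood at 4643 to 5824 FPKM in rUUO against 832 to 2144 in sham, whereas those of the thick limb and collecting duct stood at 52.6 to 89.8 against 327 to 404, of macrophages at 10.5 to 21.0 against 56.4 to 80.0, and of the proximal tubule at 8.47 to 17.5 against 29.8 to 55.7. Their part in the differences was not tested. Fn1 remained 8.92-fold, Postn 7.86-fold, Fbln2 5.94-fold, Thbs2 5.31-fold and Tnc 5.05-fold above the sham mean. Tgfbi, which had not passed in UUO, was 2.85-fold higher, with a log2 change of 1.61 ± 0.34 (SE, limma adjusted p = 0.00333). Eln came nearest to sham, at 1.63-fold and a log2 change of 0.68 ± 0.20 (SE, limma adjusted p = 0.0261). Its call was lost without sham replicate 2 or rUUO replicate 2 or 6 (limma adjusted p from 0.0674 to 0.0825), and the log2 change was 0.46 when FPKM was rescaled without the mitochondrial genes (adjusted p = 0.186). Both comparisons use the same sham samples.

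**Figure D2:**
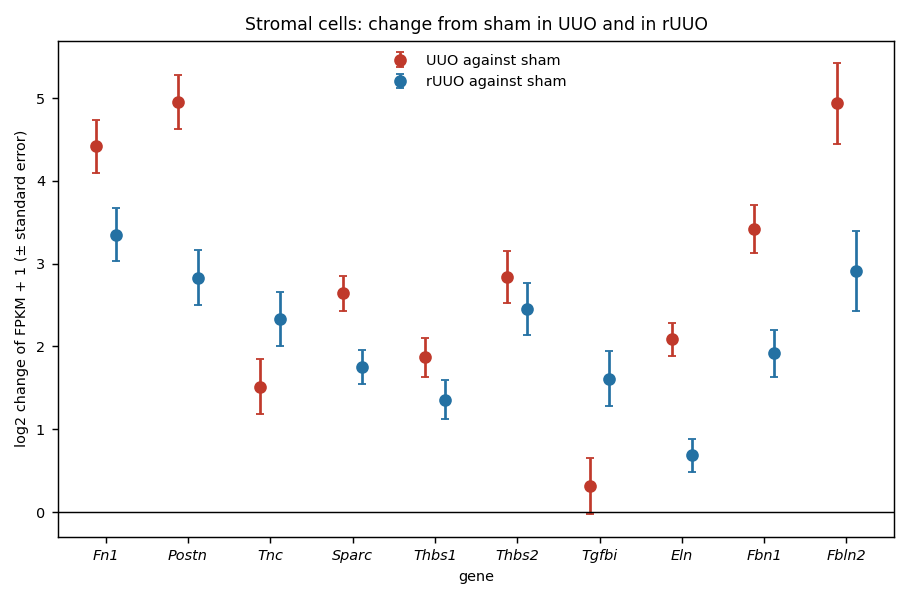
Log2 change of FPKM + 1 in stromal cells for each gene, UUO against sham in red and rUUO against sham in blue, with limma standard errors as bars (4 samples per group). Postn and Fbln2 show the widest gap between UUO (4.95 and 4.93) and rUUO (2.83 and 2.91), whereas Tnc (1.51 and 2.33) and Tgfbi (0.31 and 1.61) are higher in rUUO.

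Other genes of the same families were counted from lists. These were chosen with earlier results of these data known, so the counts are a description and not independent of the data. The marker shifts of the stromal samples given above apply to all 3 lists, and their part in these changes was not tested. Of 17 other elastic fibre and microfibril genes, all tested in stromal cells, 16 rose in UUO against sham and none fell, with a median log2 change of 2.17. Of all genes tested, 13.4% rose and 13.0% fell. The largest were Lox, the elastin and collagen cross-linking enzyme (21.9 to 462 FPKM in mean, log2 change 4.54), the latent TGF-beta binding protein gene Ltbp2 (4.58 to 77.6 FPKM, 3.89), the second fibrillin gene Fbn2 (0.958 to 22.3 FPKM, 3.70) and the microfibril gene Mfap5 (52.0 to 679 FPKM, 3.67). In rUUO against UUO, 2 of the 17 rose and 4 fell, beside 2.95% and 1.22% of all genes. Lox fell by 2.32, Mfap5 by 1.46 and Efemp2, which encodes fibulin-4, by 1.25, whereas Fbln7, another fibulin gene, rose by 1.65. In rUUO against sham, 15 of the 17 were higher and none lower, beside 11.6% and 5.57% of all genes. They were led by Ltbp2 at 4.11 and Fbn2 at 3.46, then Fbln7 at 2.59 and Mfap2 at 2.50.

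Of 22 other matricellular genes, 17 were tested in stromal cells, and 11 rose and 1 fell in UUO, against 13.4% and 13.0% of all genes, with a median log2 change of 1.48. The CCN family gene Ccn3 (listed as Nov) had the largest change, from 0.81 to 26.6 FPKM in mean (log2 change 3.97), followed by the thrombospondin genes Thbs4 (0.433 to 17.3 FPKM, 3.55) and Thbs3 (6.26 to 56.2 FPKM, 3.14) and the SPARC relative Fstl1 (186 to 1155 FPKM, 2.65). The one that fell was Ccn2 (listed as Ctgf), the connective tissue growth factor gene, from 647 to 210 FPKM in mean (log2 change −1.64, limma adjusted p = 7.64e-05), named here after its values were seen. In rUUO against UUO, 4 rose and 4 fell, beside 2.95% and 1.22% of all genes. Ccn3 fell by 3.25, Ccn5 (listed as Wisp2) by 2.32 and Thbs4 by 1.98, while the SPARC relative Smoc1 rose by 1.63. In rUUO against sham 9 were higher and 2 lower, beside 11.6% and 5.57% of all genes, the highest being Spp1 (osteopontin, 3.27), Thbs3 (2.60), the calcification inhibitor Mgp (2.38) and Sparcl1 (2.07). Those lower were Ccn2 and Ccn5, also named after their values were seen.

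The provisional matrix relatives moved in both directions. Of 10 listed, 6 were tested, and 2 rose and 3 fell in UUO, where 13.4% and 13.0% of all genes did so, with a median log2 change of −0.77. Npnt, the gene of nephronectin, an integrin ligand of tubular basement membranes, fell by 2.70 (51.5 to 7.44 FPKM in mean), Mfge8 by 2.04 (416 to 101 FPKM) and Egfl6 by 1.75 (4.34 to 0.653 FPKM). Fbln1, which encodes fibulin-1, rose by 1.96 (70.2 to 275 FPKM). Between rUUO and UUO, Npnt rose by 1.71 and Egfl6 by 1.41, and none fell, beside 2.95% and 1.22% of all genes. The call of Egfl6 lay at the edge of the threshold (limma adjusted p = 0.0499), with a UUO mean of 0.653 FPKM. Calls of the relatives, in this list and the others, were not retested with samples left out. Against sham, rUUO cells were 2.07 higher in Fbln1 and 2.22 lower in Mfge8 on the log2 scale, the only 2 of the 6 that passed. Of all genes tested, 11.6% were higher and 5.57% lower. Thick limb and collecting duct markers in these stromal samples had median sums of 372 FPKM in sham, 42.3 in UUO and 76.3 in rUUO. How much of Npnt and the other genes of this list came from such cells was not tested.

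Comparison of the sham populations asked which cells held each transcript without obstruction, from a fit of all 44 samples over 14332 genes. Against PT cells, all 10 genes were higher in stromal cells, but so were 58.1% of all genes tested, with a median log2 difference of 4.31 against 1.05 for all genes. Against macrophages, 9 were higher (background 27.3%) and Tgfbi was lower (background 18.9%). Tnc, Thbs2 and Eln were under the filter in PT cells, and Thbs2 in macrophages. There they entered this fit only through populations where they are high, so their higher stromal level is partly set by the filter. The counts and the median that include them are therefore a description. In sham, macrophage Tgfbi was 170.1, 170.1, 193 and 203 FPKM and the highest stromal sham value was 77.6, with no overlap. The log2 difference was −2.27 ± 0.27 (SE, limma adjusted p = 2.99e-09). For Fn1 the groups overlapped, since macrophages had 2.73, 15.4, 25.1 and 44.4 FPKM in sham, and the difference of 1.60 (limma adjusted p = 0.00265) became 0.89 without macrophage sham replicate 4 (adjusted p = 0.0502).

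Fewer of the 10 genes differed between stromal and endothelial cells. In sham, 7 of the 10 genes were higher in stromal cells (background 13.9%) and Fbln2 was lower (background 9.80%). Endothelial Fbln2 was 22.6, 43.4, 45.3 and 46.3 FPKM, while the stromal samples ran from 3.99 to 33.9 FPKM, and the log2 difference was −1.76 ± 0.40 (SE, limma adjusted p = 0.000605) although 1 sample of each group crossed. Fbln2 also passed without endothelial sham replicate 4, its lowest sample. Sparc, at 1286, 1300.0, 1458 and 1627 FPKM in endothelial cells, and Thbs2, at 10.9, 12.4, 13.9 and 19.6 FPKM, overlapped the stromal values. Their differences were 0.36 ± 0.26 and 0.06 ± 0.26 (SE, limma adjusted p = 0.358 and 0.917).

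Sorted populations can hold traces of each other, and the levels were therefore set beside those of the stromal markers. As a percentage of the stromal mean in the same surgery, the 5 stromal markers stood at 0.248% to 0.837% in PT UUO cells, 0.495% to 1.05% in macrophage UUO cells and 0.424% to 2.16% in endothelial UUO cells. In PT UUO cells, Postn (0.329%), Thbs2 (0.369%), Eln (0.306%), Fbn1 (0.279%), Fbln2 (0.451%), Fn1 (0.548%), Sparc (0.640%) and Tnc (0.698%) lay within that range, and Thbs1 (5.24%) and Tgfbi (2.94%) above it. Macrophage UUO cells exceeded the marker range in Fn1 (3.40%), Thbs1 (11.1%) and Tgfbi (464%). Endothelial UUO cells exceeded it in Sparc (27.4%), Tgfbi (34.3%), Thbs2 (11.96%), Thbs1 (10.96%), Fbln2 (7.00%), Eln (5.43%), Tnc (2.32%) and Fn1 (2.28%). Other cell types left larger traces in endothelial samples, where podocyte markers of sham samples summed to 288 to 622 FPKM, those of UUO samples to 317 to 327 and those of rUUO samples to 432 to 477, and thick limb and collecting duct markers to 64.3 to 777 FPKM. Stromal markers there summed to 28.4 to 57.8 FPKM. How much of the values in any population came from other cells was not tested.

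**Figure D3:**
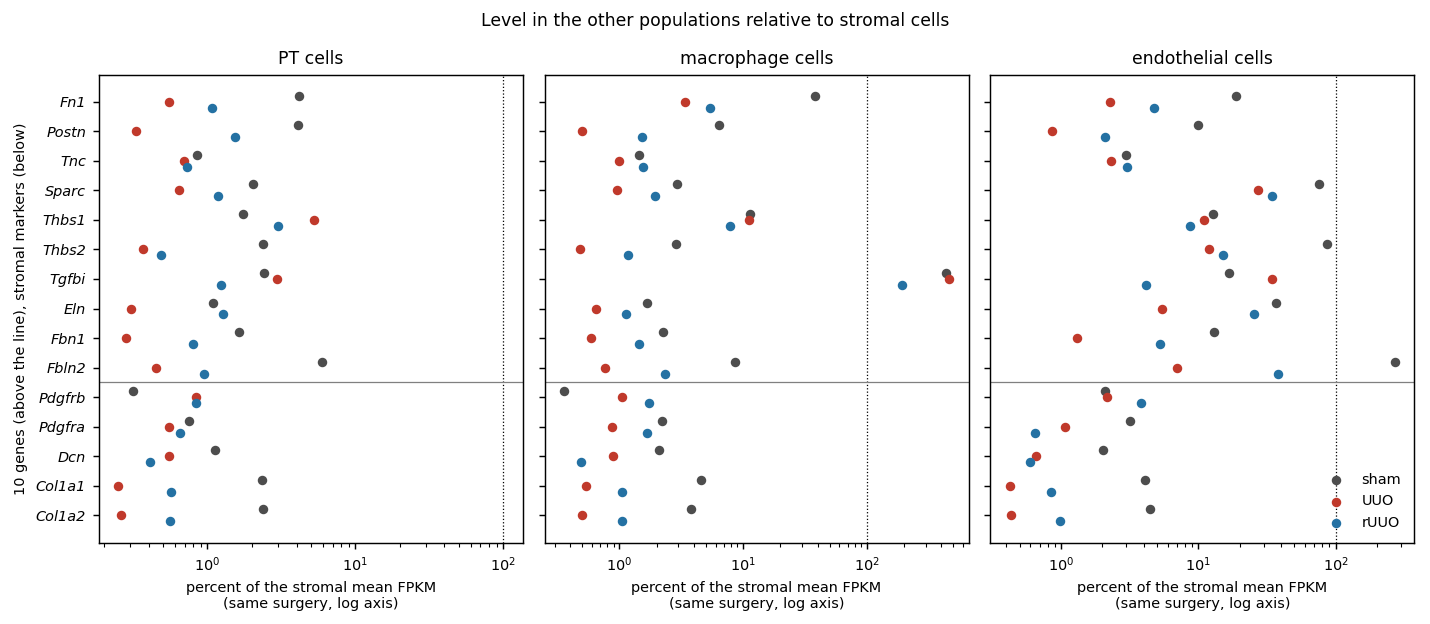
Mean FPKM in PT cells, macrophages and endothelial cells as a percent of the stromal mean in the same surgery (log axis), with the 10 genes above the line and 5 stromal markers below it; the dotted line is 100%. In UUO most genes of PT cells fall among the markers, Tgfbi of macrophages stands at 464%, and Fbln2 of endothelial cells moves from 272% in sham to 7.00% in UUO.

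In PT cells, 7 of the 10 genes were tested, since Eln, Thbs2 and Tnc had a mean under 1 FPKM over the PT samples. Of these, Thbs1, Fn1 and Sparc rose in UUO, but 27.9% of all genes tested rose and the median log2 change was 0.63 over the 7 genes and 0.51 over all genes. Thbs1 had 0.42, 0.60 and 0.69 FPKM in sham and 4.45, 5.21, 5.75 and 9.45 FPKM in UUO, all above sham. The log2 change was 2.16 ± 0.30 (SE, limma adjusted p = 0.000106) and 1.57 or more in every alternative. Proximal tubule markers in these samples went from 1610.3 to 2218 FPKM in sham to 437 to 599.7 in UUO, those of the thick limb and collecting duct from 21.8 to 26.5 to 156 to 213, and those of smooth muscle and myofibroblasts from 1.57 to 3.75 to 7.93 to 19.95. None of these sham and UUO ranges overlapped, and their part in the changes was not tested.

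Fn1 in PT cells had 1.75, 1.90 and 3.47 FPKM in sham and 4.13, 4.91, 7.01 and 7.39 FPKM in UUO, with a log2 change of 1.03 ± 0.29 (SE, limma adjusted p = 0.0165). That call was lost without sham replicate 1 or 4 (limma adjusted p = 0.0688 and 0.0666), and after quantile normalization the change was 0.43 (adjusted p = 0.289). Sparc had 31.1, 32.3 and 51.6 FPKM in sham and 63.8, 66.1, 71.6 and 93.1 FPKM in UUO, a log2 change of 0.95 ± 0.22 (SE, limma adjusted p = 0.0047). The UUO samples of both genes were above all sham samples, as were those of 5 of the 10 genes, against 34.5% of all genes tested.

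Between rUUO and UUO no gene passed in PT cells by limma, against 3.83% of all genes, and 1 of the 7 had an unadjusted p under 0.05, as had 21.4% of all genes. Thbs1 was 1.97, 2.38 and 3.15 FPKM in rUUO, below every UUO sample, with a log2 change of −1.01 ± 0.30 (SE, limma adjusted p = 0.077). Against sham, Sparc (68.8, 69.5 and 78.8 FPKM in rUUO, log2 change 0.94, limma adjusted p = 0.0241) and Thbs1 (1.15, adjusted p = 0.0439) were higher, beside 6.52% of all genes. Proximal tubule markers summed to 993 to 1276 FPKM in rUUO against 1610 to 2218 in sham. Those of the thick limb and collecting duct summed to 52.0 to 145 against 21.8 to 26.5. Those of smooth muscle and myofibroblasts summed to 16.8 to 23.8 against 1.57 to 3.75. The part of these markers in the differences was not tested. Thbs1 lost its call without any 1 of the 6 samples (limma adjusted p from 0.0588 to 0.129) and Sparc without any 1 of 5, all but sham replicate 2 (0.0557 to 0.101). Of the relatives tested in PT cells, 4 of 7 matricellular, 4 of 6 provisional matrix and 4 of 9 elastic fibre genes rose in UUO and none fell, in a comparison where 27.9% of all genes rose and 4.91% fell. Their median log2 changes were 1.33, 2.09 and 0.60, beside 0.51 over all genes. In rUUO against UUO 1, 2 and 0 fell (3.15% of all genes) and none rose. In rUUO against sham 4, 3 and 3 were higher (6.52% of all genes) and none lower.

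Macrophages had the highest Tgfbi of the 4 populations after every surgery, and its changes with surgery did not pass. In UUO it was 179.7, 206, 232 and 265 FPKM and in rUUO 216, 222 and 251 FPKM. The log2 changes from sham, 0.25 ± 0.16 and 0.32 ± 0.17 (SE, limma adjusted p = 0.406 and 0.374), did not pass, although every rUUO sample lay above every sham sample.

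No gene of the 9 tested in macrophages (Thbs2 was under the filter) passed by limma in any of the 3 comparisons, where 4.99% of all genes changed with obstruction, 0% changed between rUUO and UUO, and 3.44% differed between rUUO and sham. At an unadjusted p under 0.05 there were 4, 0 and 2 of the 9, against 19.7%, 7.09% and 15.9% of all genes. The largest change in UUO was that of Thbs1, which had 1.52, 3.46, 3.99 and 5.87 FPKM in sham and 5.75, 8.19, 12.9 and 25.7 FPKM in UUO, the ranges touching at 1 sample. Its log2 change was 1.48 ± 0.42 (SE, limma adjusted p = 0.0592), and 1.77 without UUO replicate 4 (adjusted p = 0.035). Thbs1 is also a platelet gene, and the summed platelet markers (Pf4, Ppbp, Itga2b and Gp1ba) were 196 to 253 FPKM in macrophage sham and 174 to 859 FPKM in UUO samples. Only 2 of these 4 markers reached a mean of 1 FPKM in either group, so the sum rests on part of the list and does not show platelets by itself. The UUO sample with the highest Thbs1, replicate 1, had the highest platelet sum. Neutrophil markers in macrophage samples summed to 3.15 to 8.10 FPKM in sham and 10.7 to 90.7 in UUO, and lymphocyte markers to 1.60 to 2.25 and 4.02 to 46.1. UUO replicate 2 stood apart, with macrophage markers of 1299 FPKM against 2853 to 3103 and a mitochondrial share of 37.8% against 22.6% to 26.4%, and without it none of the 9 genes passed and the change of Thbs1 was 1.62 (limma adjusted p = 0.052). The part of these cells in Thbs1 was not tested.

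Macrophage sham replicate 4 had the lowest value of 9 of the 10 genes in its group, all but Tgfbi, and also the lowest stromal marker sum, 10.3 FPKM against 32.5 to 44.2 in the others. In rUUO macrophages replicate 1 was highest for all 10 genes, with Sparc at 200.1 FPKM beside 75.9 and 83.1 and Tnc at 4.48 beside 1.30 and 3.01. Among the relatives, 3 of 7 matricellular genes tested in macrophages rose in UUO (2.86% of all genes) and 2 were higher in rUUO than in sham (1.89%). Of 4 provisional matrix genes none passed, and of 11 elastic fibre genes 1 fell in UUO (2.13%), while none of the 3 lists had a gene that passed between rUUO and UUO. The median log2 changes of the 3 lists in UUO were 0.94, −0.38 and 0.74, beside −0.03 over all genes.

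Endothelial cells kept a high level of Sparc throughout. It rose from 1286 to 1627 FPKM in sham to 2832, 2897 and 3737 FPKM in UUO, a log2 change of 1.15 ± 0.15 (SE, limma adjusted p = 0.00071). Together with Thbs1 it made 2 of 10 genes called, against 1.28% of all genes tested called higher. Thbs1 had 2.98, 3.28, 3.59 and 6.98 FPKM in sham and 9.83, 13.8 and 15.4 FPKM in UUO, with no overlap and a log2 change of 1.46 ± 0.36 (SE, limma adjusted p = 0.0467). The call of Thbs1 was lost without any 1 of 6 of the 7 samples (adjusted p from 0.0618 to 0.133), all but sham replicate 3. Proximal tubule markers in endothelial samples summed to 188 to 282 FPKM in sham and 118 to 184 in UUO, without overlap. Those of the thick limb and collecting duct, at 158 to 777 in sham and 64.3 to 203 in UUO, overlapped. The part of these markers in the changes was not tested.

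Fn1 and Tgfbi in endothelial cells came close to the threshold in UUO. Fn1 had 7.87, 9.32, 10.4 and 15.7 FPKM in sham and 16.5, 26.8 and 29.9 FPKM in UUO (log2 change 1.10 ± 0.28, limma adjusted p = 0.0539), and it passed without sham replicate 2 or UUO replicate 2 (adjusted p = 0.0301 and 0.0363). Tgfbi had 4.76, 6.48, 8.43 and 8.46 FPKM in sham and 13.9, 17.0 and 18.1 FPKM in UUO (log2 change 1.13 ± 0.29, limma adjusted p = 0.0631). The groups of both genes were apart, as they were for 5 of the 10 genes, against 6.17% of all genes. Thbs2, Eln, Fbn1 and Fbln2 had log2 changes of −0.07, −0.62, −0.05 and −0.52, with limma adjusted p from 0.472 to 0.975.

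No gene passed between rUUO and UUO in endothelial cells by limma, where 0.0597% of all genes did, and 5 of the 10 had an unadjusted p under 0.05, against 10.2% of all genes. Tgfbi, at 3.71, 4.69, 4.96 and 6.49 FPKM in rUUO, was below every UUO sample (log2 change −1.55 ± 0.29, limma adjusted p = 0.0831), whereas in stromal cells it was higher in rUUO than in UUO. That contrast between the populations was not tested. Against sham, Tnc and Fn1 were higher in rUUO, beside 1.40% of all genes. Smooth muscle and myofibroblast markers were also higher, at 76.9 to 137 FPKM in rUUO against 37.1 to 68.7 in sham, and their part in these differences was not tested. Tnc had 0.70, 0.86, 0.92 and 1.95 FPKM in sham and 4.98, 5.48, 5.84 and 6.51 FPKM in rUUO, with no overlap and a log2 change of 1.70 ± 0.34 (SE, limma adjusted p = 0.0149). Without rUUO replicate 1 its adjusted p was 0.0538. Fn1, at 21.5, 21.6, 24.9 and 29.1 FPKM in rUUO, had a log2 change of 1.13 ± 0.26 (SE, limma adjusted p = 0.0339), and the call was lost without any 1 of 7 of the 8 samples, all but sham replicate 2 (adjusted p from 0.0716 to 0.125). Sparc, at 2022, 2031, 2102 and 2314 FPKM in rUUO, was above all sham samples (log2 change 0.58, limma adjusted p = 0.0506). Among the relatives tested in endothelial cells, 4 of 11 matricellular genes rose in UUO (1.28% of all genes) and 5 were higher in rUUO than in sham (1.40%), whereas none of 8 provisional matrix genes passed and 1 of 11 elastic fibre genes fell in UUO (0.702%). Their median log2 changes in UUO were 0.75, 0.47 and −0.09, beside 0.03 over all genes. None of these relatives passed between rUUO and UUO.

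Whether obstruction moved these genes more in stromal cells than elsewhere was tested as a difference of the UUO changes in 1 limma fit. The same 7 genes, Fn1, Postn, Sparc, Thbs2, Eln, Fbn1 and Fbln2, had a higher log2 change in stromal cells than in PT cells (background 6.16%), macrophages (7.88%) and endothelial cells (6.55%). In endothelial cells the changes of Thbs2, Eln, Fbn1 and Fbln2 were negative and did not pass, so those differences do not set a larger rise against a smaller one. These 3 comparisons share the stromal samples. Thbs2 and Eln were under the filter in PT cells, with UUO means of 0.413 and 0.70 FPKM, as was Thbs2 in macrophages (0.538 FPKM), so these genes entered the fit through other populations and the log2(FPKM + 1) scale flattens any change of theirs there. It also flattens the changes of Postn, Fbn1 and Fbln2 in PT cells (sham means 0.637, 0.733 and 0.857 FPKM). The same holds in macrophages for Postn, Eln, Fbn1 and Fbln2 (sham means 0.988, 0.873, 1.01 and 1.25 FPKM). The difference in log2 change was 3.88 to 4.32 for Postn, 4.10 to 5.45 for Fbln2, 3.31 to 3.39 for Fn1, 2.60 to 3.46 for Fbn1, 2.76 to 2.91 for Thbs2, 1.66 to 2.71 for Eln and 1.49 to 1.69 for Sparc. Against PT cells the difference is read beside a median of −0.51 over all genes.

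For Thbs1 no such difference passed. Its log2 change in UUO was 1.87 in stromal cells, 2.16 in PT cells, 1.48 in macrophages and 1.46 in endothelial cells, and the differences from stromal cells were −0.29 ± 0.48, 0.40 ± 0.46 and 0.41 ± 0.48 (SE, limma adjusted p = 0.695, 0.627 and 0.656). These standard errors do not resolve small differences between populations. Tnc (1.08, 0.98 and 0.67; limma adjusted p = 0.0679, 0.123 and 0.37) and Tgfbi (0.12, 0.06 and −0.81; adjusted p = 0.858, 0.939 and 0.189) did not pass either. Tnc was under the filter in PT cells, with a UUO mean of 0.853 FPKM, and the scale flattens its change there too. The difference of Tnc from PT cells passed when stromal UUO replicate 2 or 4 or PT UUO replicate 2 was left out (1.29 to 1.33), and that from macrophages when stromal UUO replicate 4 was left out (1.23, limma adjusted p = 0.0461). With a pseudocount of 0.1 the difference of Eln from macrophages was 1.21 and did not pass (adjusted p = 0.174).

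**Figure D4:**
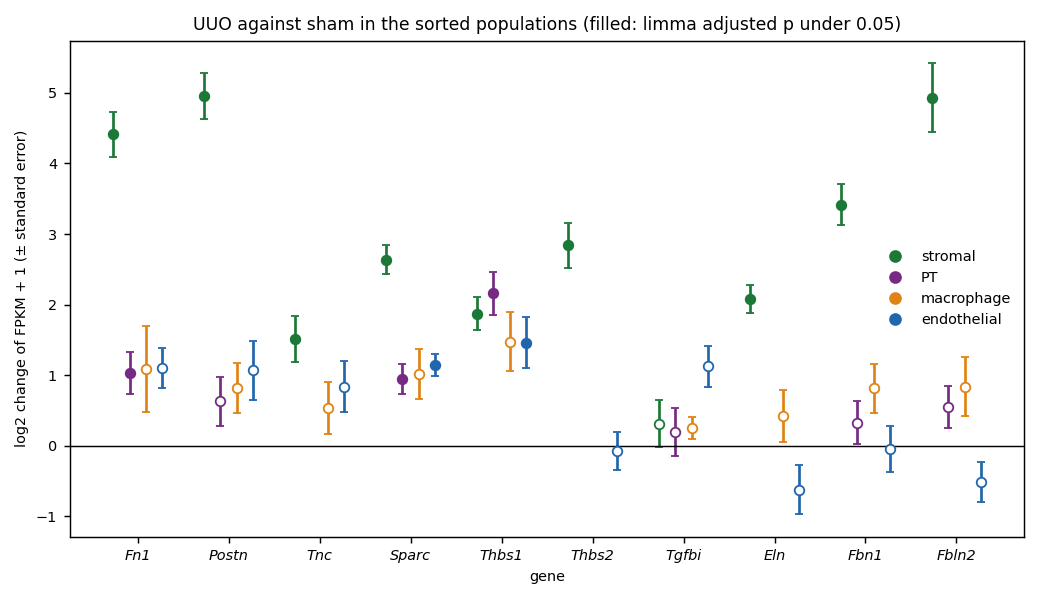
Log2 change of FPKM + 1 in UUO against sham for each gene in the 4 populations, with limma standard errors as bars; filled points have a limma adjusted p under 0.05, and genes under the filter of a population are left out. Stromal cells stand apart for Postn (4.95), Fbln2 (4.93), Fn1 (4.42), Fbn1 (3.42) and Thbs2 (2.84), whereas the Thbs1 changes of the 4 populations lie between 1.46 and 2.16.

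The 10 genes were also compared by their pattern over the 12 group means of log2(FPKM + 1), which share the libraries of each population, as a description. Pearson's r was highest between Thbs2 and Eln (0.979), Sparc and Thbs2 (0.976), and Thbs2 and Fbln2 (0.971), genes with a sizeable endothelial level. Next came Postn and Fbn1 (0.969) and Tnc and Fbn1 (0.962). Tgfbi had the lowest r with the other genes, from 0.152 with Fbln2 to 0.571 with Fn1.

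Among 14322 other genes over the same 12 means, those nearest to Fn1 were Ssr3 (r = 0.987) and Mmp19 (0.982), to Postn Serpina3n (0.993) and Tbx18 (0.992), and to Tnc Serping1 (0.988) and Mmp2 (0.987). For Sparc they were Fam198b (0.994) and Nid1 (0.992), for Thbs1 Glipr2 (0.972) and Fgf11 (0.963), and for Thbs2 Mfap2 (0.997) and Cxcl12 (0.993). Eln was nearest to Slc2a13 (0.987) and Fkbp10 (0.987), Fbn1 to Col12a1 (0.996) and Adgrd1 (0.994), and Fbln2 to Fxyd6 (0.989) and Rian (0.987). These partners had their highest mean in stromal UUO cells, except Mmp2 and Fgf11, which were highest in stromal rUUO cells. Tgfbi was nearest to Tnfrsf1b (0.979) and Sh3kbp1 (0.973), both highest in macrophage rUUO cells.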

How the data were processed

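The deposited table holds FPKM values made by the authors from paired-end Illumina reads of 150 bases, after amplification with the Ovation RNA-Seq System V2. The submitters' processing notes name FastQC, RSEM, Bowtie2, DESeq2 and the mm10 build, with no versions. Gene positions are those of the file (GRCm38). Of 46 value columns, 44 were used. The 2 left out share 1 name, that of endothelial UUO replicate 3, and PT sham replicate 3 had no column. A PT sample titled with both SHAM and UUO was grouped by its treatment label, UUO.

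Within each population, limma (3.58.1 in R 4.3.3; lmFit, eBayes with trend) was fitted to log2(FPKM + 1) of genes whose mean reached 1 FPKM, with Benjamini-Hochberg adjustment over those genes. Comparisons between populations, and differences of their UUO changes, used 1 fit of all 44 samples. In stromal cells, up to 4 relatives per list with the largest called change and no overlap are named. For each of the 10 genes, the 2 genes with the highest r over 12 group means are named. Alternatives were a pseudocount of 0.1, no filter, 3 rescalings (TPM, without mitochondrial genes, quantile), a replicate block, a fit over all populations and leaving out each sample. Tested on simulated data for stromal UUO against sham (14033 genes), the fit found 80% of changes of 2 and 25% of changes of 1 on the log2 scale. The genes and lists were chosen with earlier results of these data known.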

Additional observations from a re-analysis of the deposited data

Results flagged for a closer look

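In groups of 4 samples, a sample was singled out where its gap to the nearest other, as a share of the group's range, exceeded Dixon's 95% critical value. This held for 5 of 80 groups, and chance gives about 1 in 20. Stromal UUO replicate 4 had 1274.73 FPKM of Fn1, beside 991.6 to 1006 in the other samples. Endothelial sham replicate 2 had 2.5 FPKM of Postn, beside 1.18 to 1.32, and 7.97 FPKM of Fbn1, beside 4.85 to 5.25. Its stromal markers summed to 52.0 FPKM against 28.8 to 31.7 in the others. Macrophage sham replicate 4 had 0.39 FPKM of Fbn1, beside 1.13 to 1.30. Endothelial sham replicate 4 had 22.62 FPKM of Fbln2, beside 43.4 to 46.3. That sample was the lowest of its group for 8 of the 10 genes, and its podocyte markers summed to 288 FPKM against 496 to 622 in the others.

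A test of the difference itself set the UUO change of stromal cells apart from that of another population for 21 of 30 pairs of gene and population. The share of all genes called higher was 6.16% against PT cells, 7.88% against macrophages and 6.55% against endothelial cells. Thbs2 and Eln in PT cells and Thbs2 in macrophages were under the filter, and the log2(FPKM + 1) scale flattens any change of theirs there. It also flattens the changes of Postn, Fbn1 and Fbln2 in both populations and of Eln in macrophages, which were low in sham. With a pseudocount of 0.1 the difference of Eln from macrophages did not pass (limma adjusted p = 0.174). The difference in log2 change from PT cells was 3.39 for Fn1, 4.32 for Postn, 1.69 for Sparc, 2.82 for Thbs2, 1.98 for Eln, 3.09 for Fbn1 and 4.39 for Fbln2. From macrophages it was 3.33 for Fn1, 4.13 for Postn, 1.63 for Sparc, 2.76 for Thbs2, 1.66 for Eln, 2.60 for Fbn1 and 4.10 for Fbln2. From endothelial cells it was 3.31 for Fn1, 3.88 for Postn, 1.49 for Sparc, 2.91 for Thbs2, 2.71 for Eln, 3.46 for Fbn1 and 5.45 for Fbln2.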

How the results depend on the processing

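Of 123 counts of the 10 genes under alternatives other than leaving out a sample, 105 stayed within 1.5 times the reported count and 18 did not, and of 2632 single-gene values 2526 kept their side of the threshold, 87 lost a call, 19 gained one and 0 called values changed sign. The stromal count of 6 between rUUO and UUO was 2 without the low-value filter, and 3 to 7 when single samples were left out. In PT cells, the count of 2 for rUUO against sham was 0 without the filter, 1 after quantile normalization, 1 in the fit over all populations, and 0 to 1 when samples were left out. In macrophages, the count of 0 in UUO was 1 after quantile normalization, 2 in the fit over all populations and 0 to 1 when samples were left out, and that of 0 for rUUO against sham was 2 in the fit over all populations. In endothelial cells, the count of 2 in UUO was 1 without the filter, as TPM or without mitochondrial genes, and 1 to 2 when samples were left out. The endothelial count of 0 between rUUO and UUO was 1 in the fit over all populations, and that of 2 for rUUO against sham was 0 without the filter, 1 without mitochondrial genes, 1 in the fit over all populations and 0 to 2 when samples were left out. The cause of these moves was not tested, except that dropping the filter adds genes to the adjustment.

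Replicate numbers were not taken to pair the samples, since the labels give them no such meaning and deviations of same-numbered samples correlated at −0.06 to 0.10 across surgeries and −0.03 to 0.15 across populations. Of 58 comparisons across surgeries 14 were best with their own number, where arbitrary numbers give 15.5, and of 104 across populations 44, where they give 28, a hint of shared numbers between populations in the data only. With a replicate block, the counts were 2 (stromal rUUO against UUO), 0 (PT rUUO against sham), 1 (endothelial UUO) and 0 (endothelial rUUO against sham), and no other count of the 10 genes moved by over 1.5 times. The stromal calls lost between rUUO and UUO with the block were those of Fbn1, Sparc, Fbln2 and Tgfbi (limma adjusted p = 0.0707, 0.174, 0.139 and 0.0602). Calls over all genes between stromal rUUO and UUO went from 585 to 116 with the block, 200 without the filter and 361 after quantile normalization. With the block they also went from 2407 to 1574 (stromal rUUO against sham), 437 to 160 (PT rUUO against UUO), 665 to 346 (macrophage UUO), 459 to 115 (macrophage rUUO against sham), 265 to 101 (endothelial UUO), 8 to 0 (endothelial rUUO against UUO) and 237 to 68 (endothelial rUUO against sham). Without the filter, the last 6 of these were 203, 364, 303, 127, 0 and 116, and PT rUUO against sham went from 852 to 484. Quantile normalization moved the median log2 change of all genes in PT UUO from 0.51 to −0.02 and the share of calls that were higher from 85.0% to 51.8%, with 2479 calls in place of 3747. Without mitochondrial genes, the share of calls higher in stromal UUO was 39.2% in place of 50.8%, and in stromal rUUO against sham 51.4% in place of 67.6%. After quantile normalization that share was 54.0% in place of 70.8% for stromal rUUO against UUO, 51.9% for stromal rUUO against sham, 59.3% in place of 17.6% and 69.6% in place of 87.3% for PT rUUO against UUO and against sham, 60.7% in place of 79.3% for endothelial rUUO against sham, 54.5% in place of 88.7% for stromal against PT sham cells, and 46.8% in place of 21.1% for the difference of UUO changes between stromal and PT cells. With no counts, depth limits on low values are unknown.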
